A study of Arabidopsis thaliana with 8 samples.

Results

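The family of deubiquitinases to which UBP5 belongs was examined in whole seedlings of *Arabidopsis thaliana* collected 12 days after germination. The 31 members were taken by gene identifier from the 37336 identifiers in the count files: the 27 ubiquitin-specific proteases *UBP1* to *UBP27*, the 3 ubiquitin C-terminal hydrolases *UCH1* to *UCH3*, and *OTLD1*, an enzyme of the ovarian tumour (OTU) family. The rule itself uses no expression value, although the members were proposed with earlier results of these data known. The *ubp5* group comprised 4 libraries of a deletion line made with CRISPR/Cas9 and 2 guide RNAs, which removed parts of the DUSP and UBP domains of the encoded protein. The Col-0 group comprised 4 libraries of the wild-type ecotype in which the line was made. Both groups were grown on MS agar under long days, and no other allele or agent is given for either. The mutant is represented by this 1 deletion line, and RNA of the complemented line was not analysed here. The following questions were put to the data: whether transcripts of other members were higher where *UBP5* was mutated, and how abundant *UBP5* is beside its relatives in the wild type.

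Deubiquitinases cleave ubiquitin from substrate proteins, from polyubiquitin chains and from newly made ubiquitin precursors. UBP and UCH enzymes, and OTU enzymes such as OTLD1, are all cysteine proteases but have unrelated or distantly related folds. In plants, several members act on chromatin: UBP5, UBP12 and UBP13 have been linked to removal of monoubiquitin from histone H2A, which Polycomb repressive complex 1 deposits, whereas UBP22, UBP26 and OTLD1 have been linked to removal of monoubiquitin from histone H2B. Other members work with the proteasome or outside the nucleus. UBP5 shares its DUSP domain with UBP8, UBP9, UBP10 and UBP11, which are the members most like it in architecture.

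Transcripts were measured by 3′ RNA-seq with unique molecular identifiers, random tags that let copies made by PCR be counted once. A count is therefore close to 1 cDNA molecule, and CPM, the count scaled to a common library size by edgeR's TMM method, compares members without a correction for length. The tags come from the 3′ end of each transcript. *UBP5* (AT2G40930) has 13 exons on the minus strand of chromosome 2 (chr2:17076311-17082528, RefSeq annotation of TAIR10.1). The last exons and the 3′ UTR lie outside the deleted segment in the study's scheme of the gene, so a tag can be made from the mutant transcript and the *UBP5* count does not check the deletion.

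The coding sequence around the catalytic cysteine, which lies in the UBP domain, is shown for *UBP5* and for the paralogues with a DUSP domain. In the study's scheme the deletion covers the beginning of the UBP domain. Its borders were not placed by coordinates here, so whether it removes this box was not checked. Each window holds 30 bases of the coding strand, 5′ to 3′, with the codon of the cysteine in capitals. The sequences are RefSeq's for TAIR10.1 and lie at chr2:17080107-17080136 (*UBP5*), chr5:7293466-7293495 (*UBP8*), chr4:6526215-6526244 (*UBP9*), chr4:6541482-6541511 (*UBP10*), all on the minus strand, and chr1:11904494-11904523 (*UBP11*), on the plus strand.
UBP5: aatcttgggaatactTGTttcatgaatagt
UBP8: aatctaggaaacactTGTttcatgaacagt
UBP9: aatttgggaaataccTGCtttatgaatagc
UBP10: aatttgggaaataccTGCtttatgaatagc
UBP11: aatttgggaaatacaTGCttcatgaatagt
The window of *UBP8* differed from that of *UBP5* at 4 bases, that of *UBP11* at 5, and those of *UBP9* and *UBP10* at 7 each. When the whole coding sequence of *UBP5* was aligned with those of these 4 genes, identical bases made up 59.6% to 60.7% of the longer sequence. By the same measure *UBP9* and *UBP10* were 94.3% identical to each other, and they had the same window. In the last 500 transcript bases, where 3′ tags fall, *UBP9* and *UBP10* were 71.6% identical, and 438 of 446 windows of 55 bases in *UBP10* were found in no other transcript. For the remaining 30 members all 446 such windows were unique, and no member overlapped another gene on its own strand. Tags of the close paralogues could thus be told apart at nearly every position.

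Totals ranged from 1440510 to 2595285 counts in the *ubp5* libraries and from 2572842 to 2997743 counts in the Col-0 libraries, so members with few counts carry a larger error in the mutant. The first principal component (44.8% of the variance) separated the genotypes, and the second (15.3%) set Col-0 replicate 1 apart from the rest. The leaf genes *RBCS1A*, *CAB1*, *CA1* and *RCA* marked the material as green seedlings, with a summed level of 24680 to 27360 CPM in *ubp5* and 28740 to 38390 CPM in Col-0. All 4 had a negative log2 fold change, and *RBCS1A* and *RCA* passed the adjusted p without reaching 2-fold. The 5 root genes summed to 283 to 373 CPM in *ubp5* and 389 to 540 CPM in Col-0. Of the 4 root genes tested, the phosphate transporter gene *PHT1;1* was called lower (log2 fold change -1.13, SE 0.25; edgeR adjusted p = 0.0115), and 2 others had values below 0 and *SCR* a value of 0.11. The 4 flower genes summed to 9.96 to 22.2 CPM in *ubp5* and 12.7 to 15.5 CPM in Col-0, nearly all of it from *SEP3*. Over all libraries of a genotype, *AP1*, *AG* and *AP3* had 0, 0 and 8 counts in *ubp5*, against 2, 3 and 5 counts in Col-0. The 4 pollen genes reached at most 0.51 CPM in *ubp5* and 0 CPM in Col-0. The 4 seed genes summed to 15.8 to 95.4 CPM in *ubp5* and 7.21 to 23.0 CPM in Col-0, and were highest in *ubp5* replicate 1 and replicate 3. In seedlings sampled whole, fewer cells of a type and less RNA per cell cannot be told apart, and the part of these tissue genes in the values of the members was not tested.

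Of the 31 members, 30 had at least 1 count and 29 had enough counts to be tested. *UBP5* fell in *ubp5*, and it alone among the tested members met the call used here, an adjusted p under 0.05 with at least a 2-fold change. In these libraries 4.84% of the 15649 tested genes met that call, 1.91% higher and 2.93% lower in *ubp5*. *UBP5* had 14, 13, 6 and 16 counts in *ubp5* replicates 1 to 4, against 47, 57, 32 and 51 counts in Col-0 replicates 1 to 4. Scaled to library size these were 7.14, 4.97, 4.23 and 7.24 CPM in *ubp5*, against 17.8, 22.6, 12.0 and 17.1 CPM in Col-0. Every mutant library lay below every wild-type library, and within each genotype the lowest library was replicate 3. The mean was 5.89 ± 1.53 CPM in *ubp5* and 17.4 ± 4.33 CPM in Col-0 (SD, n = 4 each), which gave a log2 fold change of -1.53 (SE 0.26, 95% interval -2.10 to -0.99; edgeR quasi-likelihood test with Benjamini-Hochberg adjustment, adjusted p = 0.00236). In the fit, 0.345 of the wild-type level of 3′ tags (interval 0.234 to 0.504) was still counted from the locus in the mutant.

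**Figure D1:**
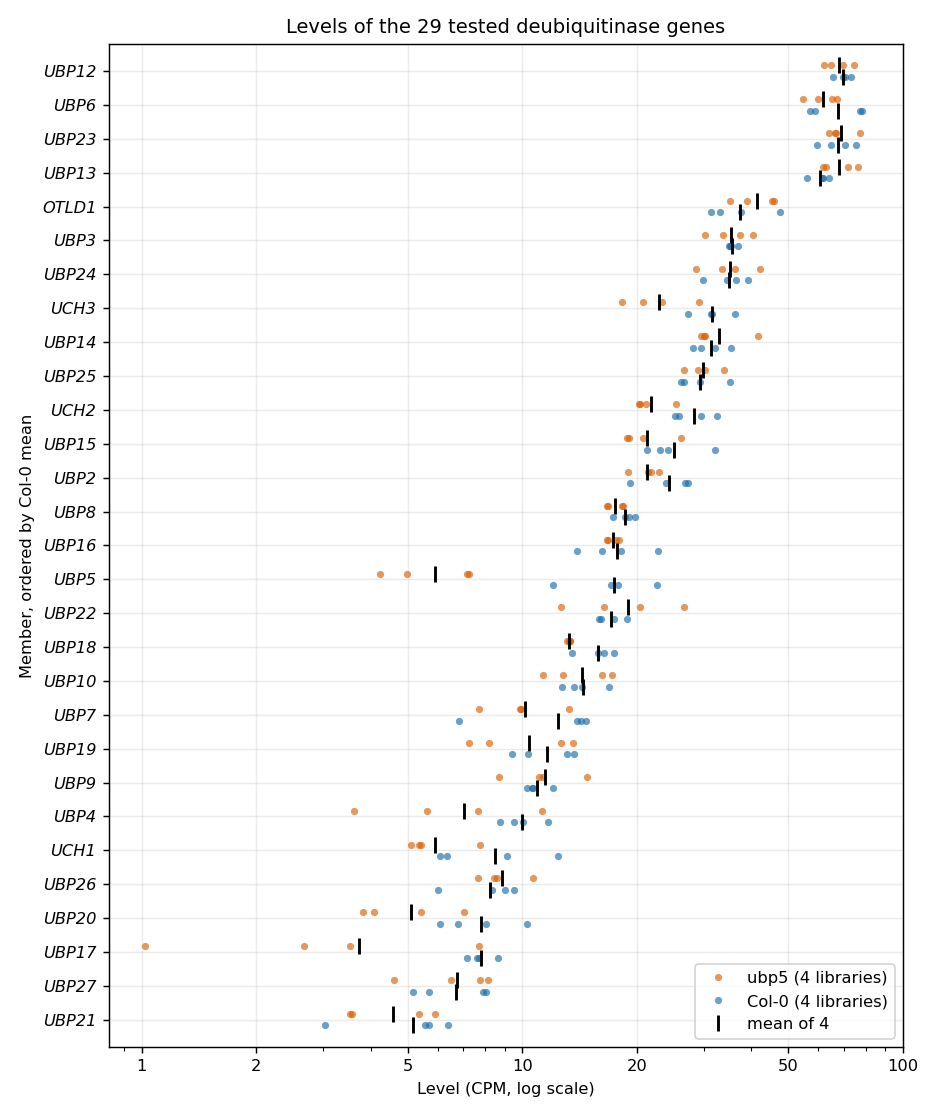
Level of each of the 29 tested members in CPM (log axis) in the 4 *ubp5* libraries (orange, upper row of each gene) and the 4 Col-0 libraries (blue, lower row), with black bars at the group means and genes ordered by the Col-0 mean. *UBP5* lies in the middle of the family in Col-0 (mean 17.4 CPM) and near its low end in *ubp5* (5.89 CPM), while the points of both genotypes overlap for every other gene except *UBP18*.

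The 4 paralogues with a DUSP domain were not called in either direction, and 3 of them were tested. *UBP8* (AT5G22030) had 36, 44, 26 and 37 counts in *ubp5*, against 49, 48, 46 and 59 counts in Col-0. These correspond to 16.7 to 18.4 CPM in *ubp5* and 17.3 to 19.7 CPM in Col-0, overlapping ranges with a log2 fold change of -0.10 (SE 0.14; edgeR adjusted p = 0.732). *UBP9* (AT4G10570) had 17, 29, 21 and 25 counts in *ubp5* and 28, 26, 32 and 32 counts in Col-0, a log2 fold change of 0.05 (SE 0.20; edgeR adjusted p = 0.935). The mutant libraries, at 8.67 to 14.8 CPM, spread to both sides of the wild-type ones, at 10.3 to 12.0 CPM. *UBP10* (AT4G10590), the near copy of *UBP9* on the same chromosome, had 25, 45, 23 and 25 counts in *ubp5* and 36, 32, 45 and 43 counts in Col-0, a log2 fold change of -0.01 (SE 0.19; edgeR adjusted p = 0.991). *UBP11* (AT1G32850) had 1 count in *ubp5* replicate 3, 1 count in Col-0 replicate 4 and 0 counts in the other libraries. It was too low to be tested. At this depth 3 counts, taken as the floor of detection, equal 1.15 to 2.11 CPM in *ubp5* and 1.00 to 1.19 CPM in Col-0, so a level of *UBP11* below that could not be seen.

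Summed over *UBP8* to *UBP11*, the level was 39.8, 45.1, 50.0 and 39.4 CPM in *ubp5*, against 42.9, 42.1, 46.3 and 45.2 CPM in Col-0. The mutant libraries lay on both sides of the wild-type range. The 95% intervals of the single genes reached at most 1.16-fold for *UBP8*, 1.32-fold for *UBP10* and 1.40-fold for *UBP9*, so a doubling of any of these 3 transcripts lies outside its interval. The summed level of the paralogues was 7.98 ± 3.07 times that of *UBP5* in *ubp5* and 2.69 ± 0.84 times in Col-0 (SD, n = 4 each).

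The 5 other members linked to histones were also not called. *UBP12* and *UBP13*, a closely related pair whose products carry a MATH domain and act on H2A together with Polycomb proteins, were among the most abundant members. *UBP12* (AT5G06600) had 146, 170, 99 and 137 counts in *ubp5* and 173, 175, 187 and 218 counts in Col-0, a log2 fold change of -0.04 (SE 0.10; edgeR adjusted p = 0.851). *UBP13* (AT3G11910) had 121, 164, 108 and 159 counts in *ubp5* and 162, 141, 170 and 184 counts in Col-0. Its levels of 61.7, 62.7, 76.1 and 72.0 CPM in *ubp5*, against 61.5, 56.0, 64.0 and 61.5 CPM in Col-0, gave the highest log2 fold change of any member, 0.16 (SE 0.11; edgeR adjusted p = 0.399). The groups overlapped, and the upper end of its interval was 1.32-fold. The sum of *UBP12* and *UBP13* was 136 ± 7.55 CPM in *ubp5* and 130 ± 4.73 CPM in Col-0 (SD, n = 4 each). Per library this sum was 18.5 to 34.5 times the level of *UBP5* in *ubp5* and 5.54 to 11.2 times in Col-0.

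*UBP22* (AT5G10790), the deubiquitinase of the SAGA-type module that acts on H2B, had 52, 43, 29 and 28 counts in *ubp5* and 42, 44, 50 and 48 counts in Col-0 (log2 fold change 0.14, SE 0.21; edgeR adjusted p = 0.736). Its mutant libraries were more scattered, at 26.5, 16.4, 20.4 and 12.7 CPM in *ubp5* against 15.9, 17.5, 18.8 and 16.1 CPM in Col-0. *UBP26* (AT3G49600), which acts on H2B and is required for silencing of some heterochromatic and imprinted loci, had 15, 28, 12 and 19 counts in *ubp5* and 25, 21, 24 and 18 counts in Col-0 (log2 fold change 0.13, SE 0.23; edgeR adjusted p = 0.779). With so few counts its interval reached 1.54-fold, the widest upper bound of any member other than *UBP5*. *OTLD1* (AT2G27350), which acts with a histone demethylase on H2B, had 89, 120, 50 and 86 counts in *ubp5* and 125, 79, 100 and 99 counts in Col-0 (log2 fold change 0.16, SE 0.15; edgeR adjusted p = 0.574). The 5 genes summed to 205 ± 9.64 CPM in *ubp5* and 193 ± 8.46 CPM in Col-0 (SD, n = 4 each), with overlapping libraries.

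**Figure D2:**
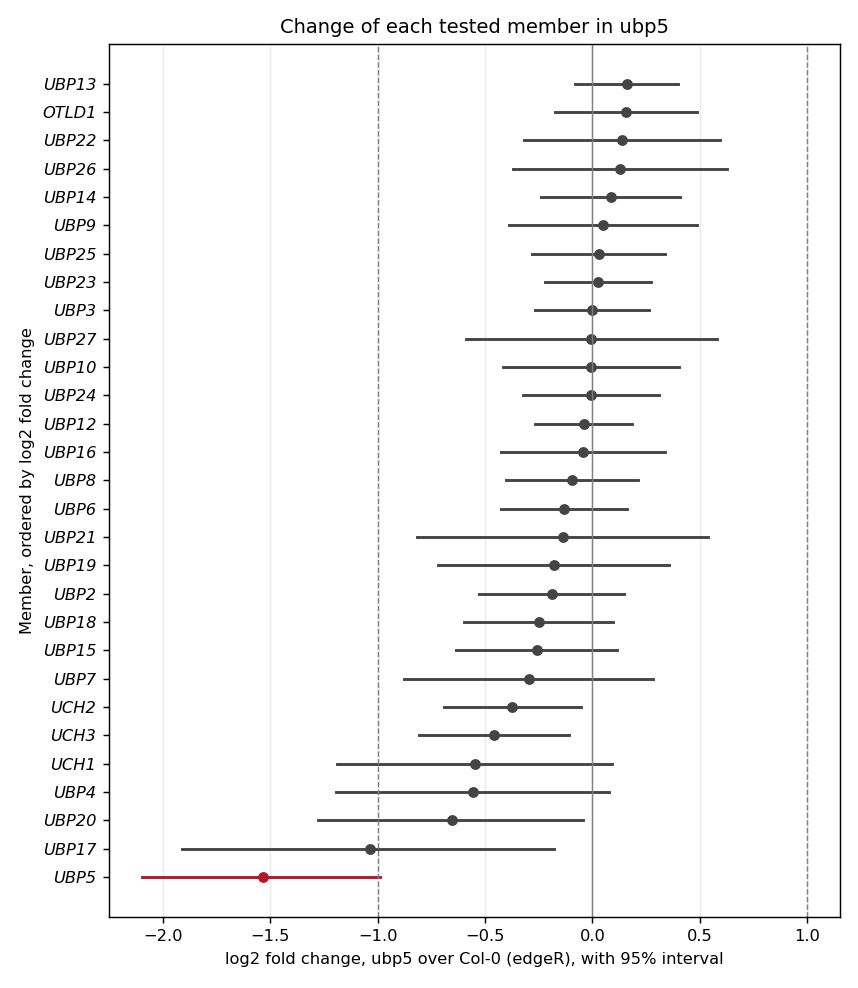
log2 fold change of each of the 29 tested members, *ubp5* over Col-0, with its 95% interval from the edgeR fit. Genes run from the highest value at the top to the lowest at the bottom, dashed lines mark a 2-fold change in either direction, and *UBP5* is in red. *UBP5* lies at -1.53, the other 28 genes lie between -1.03 (*UBP17*) and 0.16 (*UBP13*), and every upper bound of the 28 is to the left of the 2-fold line.

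Across the 28 tested members other than *UBP5*, 0 were called higher and 0 lower, and 0 passed the adjusted p alone, against 10.9% of all tested genes (4.59% higher and 6.34% lower in *ubp5*). Their edgeR adjusted p ranged from 0.0895 to 0.997 and their standard errors on the log2 scale from 0.10 to 0.40. DESeq2 and each other alternative fit also called 0 members higher. At an unadjusted p under 0.05 there were 4 members, all with lower values in *ubp5*, and 0 with higher values, while 11.7% of all tested genes were higher and 13.9% lower at that threshold. The log2 fold change was below 0 for 20 of the 28 members and above 0 for 8, where 51.6% of all tested genes were below 0. The median of the 28 was -0.07, against -0.01 over all tested genes. Under DESeq2's size factors in edgeR, *UBP3* and *UBP27* turned just above 0.

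The upper end of the 95% interval was under 2-fold for 28 of the 28 members, as it was for 90.5% of all tested genes, and under 1.5-fold for 26 of the 28, as it was for 71.2% of all tested genes. *UBP22* and *UBP26* were the exceptions to the 1.5-fold bound in the edgeR fit. DESeq2 gave larger standard errors, such as 0.293 for *UBP9* (0.201 in edgeR), 0.444 for *UBP21* (0.312) and 0.379 for *UBP27* (0.269). The count under 1.5-fold therefore rests on the edgeR errors. Lower levels were less tightly bounded: the intervals of 4 members (*UBP4*, *UBP17*, *UBP20* and *UCH1*) did not exclude a 2-fold fall. *UBP1* (AT2G32780) had 0 counts in all 8 libraries, so any level below the floor of 3 counts in a library would have gone unseen in both genotypes.

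The members with an unadjusted p under 0.05 came from the UCH group and from the low end of the family. *UCH3* (AT4G17510), which has been tied to the period of the circadian clock, had 57, 61, 26 and 46 counts in *ubp5* and 72, 79, 84 and 108 counts in Col-0. Its 29.1, 23.3, 18.3 and 20.8 CPM in *ubp5*, against 27.3, 31.4, 31.6 and 36.1 CPM in Col-0, overlapped through *ubp5* replicate 1 (log2 fold change -0.46, SE 0.16; edgeR adjusted p = 0.0895). *UCH2* (AT1G65650), which is related to the proteasome-bound hydrolase UCH37 of animals, had 40, 53, 30 and 56 counts in *ubp5* and 68, 82, 67 and 88 counts in Col-0 (log2 fold change -0.37, SE 0.15; edgeR adjusted p = 0.13). Only *ubp5* replicate 4, at 25.3 CPM, reached the lowest Col-0 library, at 25.2 CPM. *UCH1* (AT5G16310), its close paralogue, had a log2 fold change of -0.55 (SE 0.30; edgeR adjusted p = 0.268). As a sum, the 3 UCH genes had 54.6, 48.9, 47.2 and 51.6 CPM in *ubp5*, against 59.2, 73.0, 69.2 and 71.9 CPM in Col-0. All mutant libraries lay below all wild-type libraries, a difference in the mean of -26.0%, which is given as a description since the groups were formed with earlier results known. The summed level of the 4 leaf genes differed by -26.1% and that of the 5 root genes by -31.3% in the same libraries, both without overlap between the genotypes, and their part in the UCH values was not tested.

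*UBP17* (AT5G65450) had 2, 7, 5 and 17 counts in *ubp5* and 20, 18, 23 and 23 counts in Col-0. It belongs to the group *UBP15* to *UBP19* (AT2G24640), whose products carry a zinc finger of the MYND type. The 4 mutant libraries ran from 1.02 to 7.69 CPM, and the highest of them, replicate 4, lay within the Col-0 range of 7.14 to 8.65 CPM (log2 fold change -1.03, SE 0.40; edgeR adjusted p = 0.121). Without *ubp5* replicate 4 the log2 fold change was -1.71 and *UBP17* was called (edgeR adjusted p = 0.019), so this 1 library decides the call. *UBP20* (AT4G17895) had 8, 10, 10 and 12 counts in *ubp5* and 16, 26, 18 and 24 counts in Col-0 (log2 fold change -0.65, SE 0.29; edgeR adjusted p = 0.167). *UBP21* (AT5G46740), its nearest relative, had 7, 14, 5 and 13 counts in *ubp5* and 8, 14, 17 and 17 counts in Col-0, with overlapping levels (log2 fold change -0.14, SE 0.31; edgeR adjusted p = 0.836).

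Among the 28 members, 0 had all *ubp5* libraries above all Col-0 libraries, as 7.87% of the tested genes did, and 1, *UBP18* (AT4G31670), had all of them below, as 9.37% of the tested genes did. *UBP18*, also of the MYND group, had 26, 35, 19 and 29 counts in *ubp5* and 46, 34, 42 and 49 counts in Col-0. Its levels were 13.3, 13.4, 13.4 and 13.1 CPM in *ubp5*, against 17.5, 13.5, 15.8 and 16.4 CPM in Col-0 (log2 fold change -0.25, SE 0.16; edgeR adjusted p = 0.369). The mutant libraries spread by a coefficient of variation of 0.903%, far less than the 19.2% that counting error alone gives at these counts. With library totals left unscaled by TMM the groups of *UBP18* overlapped. The 5 MYND genes summed to 65.9 ± 7.77 CPM in *ubp5* and 78.1 ± 3.61 CPM in Col-0 (SD, n = 4 each). *ubp5* replicate 3, at 73.3 CPM, was within the Col-0 range of 73.0 to 81.3 CPM.

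The other members showed overlapping groups. *UBP6* and *UBP7* (AT3G21280), whose products bind the proteasome through a ubiquitin-like domain, had log2 fold changes of -0.13 (SE 0.14) and -0.30 (SE 0.27). *UBP6* (AT1G51710) had 107, 171, 85 and 148 counts in *ubp5* and 203, 144, 156 and 233 counts in Col-0. *UBP14* (AT3G20630), which takes apart free polyubiquitin chains, had a log2 fold change of 0.09 (SE 0.15), and the pollen development genes *UBP3* (AT4G39910) and *UBP4* (AT2G22310) had values of 0.00 (SE 0.12) and -0.55 (SE 0.29). *UBP23* (AT5G57990) had 131, 174, 91 and 171 counts in *ubp5* and 186, 150, 200 and 194 counts in Col-0 (log2 fold change 0.03, SE 0.11). *UBP27* (AT4G39370), which encodes a mitochondrial enzyme, had 9, 17, 11 and 18 counts in *ubp5* and 15, 13, 21 and 24 counts in Col-0 (log2 fold change 0.00, SE 0.27). *UBP2* (AT1G04860), *UBP15* (AT1G17110), *UBP16* (AT4G24560), *UBP19*, *UBP24* (AT4G30890) and *UBP25* (AT3G14400) lay between -0.26 and 0.03. At the median, replicates of a member scattered about as much as counting error predicts. The median coefficient of variation over the 29 tested members was 16.2% in *ubp5*, where counting alone gives 16.7%, and 12.6% in Col-0, where it gives 14.4%. Single members differed: 16 of the 29 in *ubp5* and 15 of the 29 in Col-0 were above their counting value, such as *UBP17* in *ubp5* (76.2% against 35.9%).

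**Figure D3:**
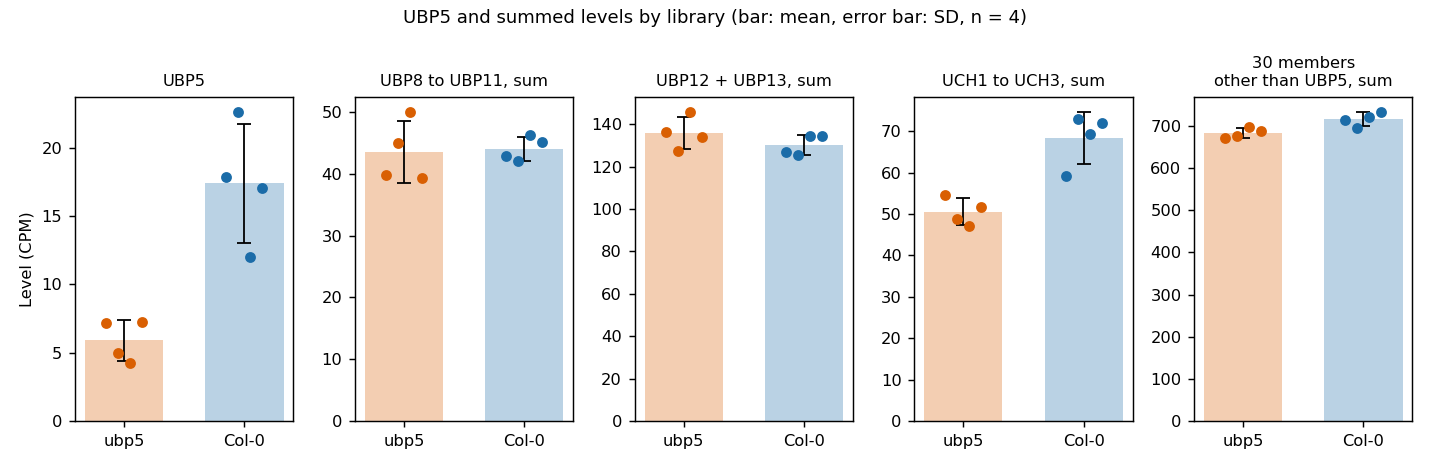
Level of *UBP5* and summed levels of 4 sets of members, in CPM, by library: points are the 4 *ubp5* (left, orange) and 4 Col-0 (right, blue) libraries, bars the means and error bars the SD, with every axis starting at 0. *UBP5* has means of 5.89 CPM in *ubp5* and 17.4 CPM in Col-0, the UCH genes are lower in every *ubp5* library, and the sums of *UBP8* to *UBP11*, of *UBP12* and *UBP13* and of the 30 members other than *UBP5* overlap between genotypes.

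The family without *UBP5* was also summed in each library. The 30 members other than *UBP5* had 673, 677, 697 and 688 CPM in *ubp5*, against 715, 695, 722 and 734 CPM in Col-0. The highest mutant library, replicate 3, lay just above the lowest wild-type library, replicate 2. The means were 684 ± 11.2 CPM in *ubp5* and 716 ± 16.4 CPM in Col-0 (SD, n = 4 each), a difference of -4.53%. *UBP5* itself made up 0.86 ± 0.23% of the family's CPM in *ubp5* and 2.38 ± 0.62% in Col-0 (SD, n = 4 each).

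In the wild type the family was uneven. The order in Col-0 was led by *UBP12* (69.6 ± 3.01 CPM), *UBP6* (67.7 ± 11.3 CPM), *UBP23* (67.6 ± 6.82 CPM), *UBP13* (60.7 ± 3.38 CPM) and *OTLD1* (37.4 ± 7.21 CPM; SD, n = 4 for each). These 5 genes held 41.3% of the family's CPM. *UBP6* and *UBP23* overlapped each other and both *UBP12* and *UBP13*, while *UBP12* (65.7 to 72.9 CPM) lay above *UBP13* (56.0 to 64.0 CPM) without overlap, and *UBP13* lay above *OTLD1* in all 4 libraries with no overlap of their ranges. At the other end, *UBP20* had 7.80 ± 1.87 CPM, *UBP17* 7.77 ± 0.63 CPM, *UBP27* 6.70 ± 1.48 CPM and *UBP21* 5.17 ± 1.47 CPM, followed by *UBP11* with 0.08 CPM and *UBP1* with 0 counts (SD, n = 4 for each).

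*UBP5*, at 17.4 CPM, ranked 16 of 31 in Col-0. Of the 15649 tested genes, 43.0% had a lower mean level in Col-0 than *UBP5*, so it was a transcript of middling abundance in its family and among the tested genes. In all, 24406 genes had at least 1 count, and those below the filter are left out of this share. Its Col-0 libraries overlapped those of 11 members, among them *UBP8* (18.7 CPM), *UBP10* (14.4 CPM), *UBP9* (10.9 CPM) and *UBP22* (17.1 CPM). A further 11 members, including *UBP12*, *UBP13* and *OTLD1*, lay above it in range and 8 lay below, including *UBP26* (8.22 CPM) and *UBP11*. In *ubp5* the rank was 26, with 22 members above it in range, 6 overlapping and 2, *UBP1* and *UBP11*, below. The order of neighbours was otherwise loose: of the 29 pairs of detected members next to each other in the Col-0 order, only 2 had ranges that did not overlap (*UBP13* above *OTLD1*, and *UBP21* above *UBP11*), and 6 kept their order in all 4 libraries. Scaled to transcript length instead, as CPM per kb, *UBP5* ranked 20 in Col-0 and its share of the family was 1.69%, because it is one of the longer transcripts (3455 bases).

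Genes of the ubiquitin pathway outside the family were given by 7 lists of 59 genes, of which 50 were tested: deubiquitinases of the JAMM, OTU and Josephin families, ubiquitin precursor genes, enzymes that attach ubiquitin to histones, partners of UBP22, and the PEAT complex, with which UBP5 has been co-purified. In all, 0 of these genes were called higher in *ubp5* and 2 lower, where 1.91% and 2.93% of all tested genes were. Their median log2 fold change was 0.07, against -0.01 over all tested genes.

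Among deubiquitinases of other folds, 10 of 11 OTU genes were tested, 1 was called lower and 0 higher, and 3 values were positive and 7 negative. The called gene was AT3G57810, annotated by RefSeq only as a cysteine proteinase superfamily protein, which fell in *ubp5*. It had 0, 5, 1 and 3 counts in *ubp5*, against 19, 24, 21 and 32 counts in Col-0. The groups were far apart (log2 fold change -2.97, SE 0.45; edgeR adjusted p = 0.00109), although the mutant libraries were at or near the floor of detection. Of the 8 JAMM genes, which encode metalloproteases, 7 were tested and 0 called. *AMSH2*, whose protein family cleaves polyubiquitin in membrane trafficking, and *BRCC36B*, a homologue of a deubiquitinase of the DNA damage response in animals, passed the adjusted p with less than a 2-fold change. *AMSH2* had 22.8 ± 0.71 CPM in *ubp5* and 33.9 ± 2.97 CPM in Col-0 (SD, n = 4 each; log2 fold change -0.57, SE 0.13; edgeR adjusted p = 0.0126). *BRCC36B* had 8.72 ± 1.38 CPM in *ubp5* and 16.1 ± 2.04 CPM in Col-0 (SD, n = 4 each; log2 fold change -0.90, SE 0.19; edgeR adjusted p = 0.01). Of the 2 Josephin genes 1 was tested and 0 called.

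**Figure D4:**
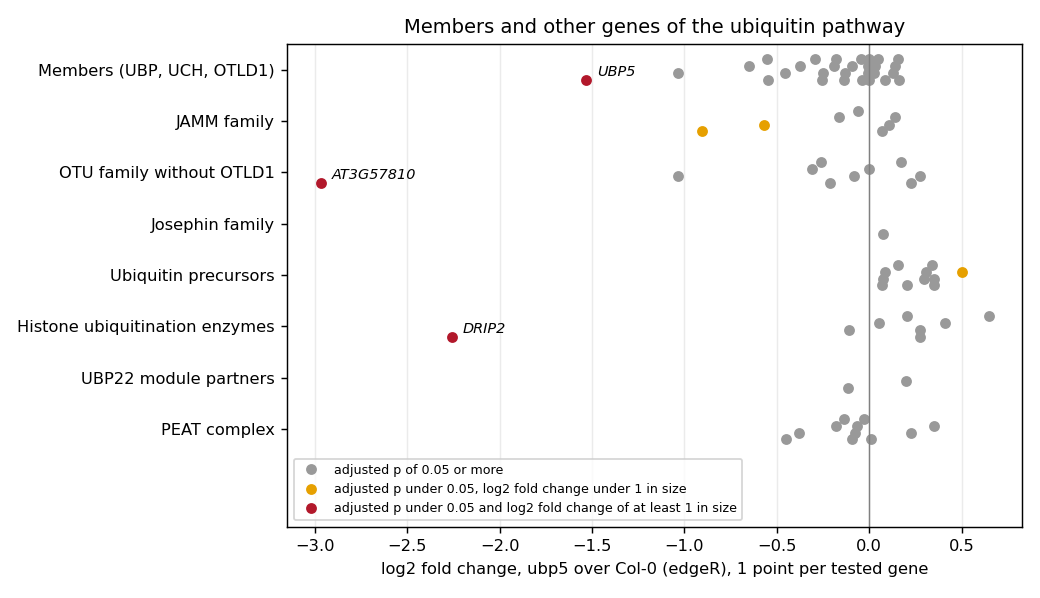
log2 fold change, *ubp5* over Col-0, of each tested gene (1 point) of the family and of the 7 other ubiquitin-pathway lists, from the edgeR fit. Red points passed the adjusted p with at least a 2-fold change (*UBP5*, AT3G57810 and *DRIP2*, all lower), amber points passed the adjusted p alone, and grey points did not pass. All 11 ubiquitin precursor genes lie to the right of 0, between 0.07 and 0.50.

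Of the 10 genes whose products attach ubiquitin to histones H2A or H2B, 8 were tested, 1 was called lower and 0 higher. The called gene was *DRIP2* (AT2G30580, also named *BMI1A*), a RING-finger component of Polycomb repressive complex 1, which monoubiquitinates H2A. *DRIP2* fell in *ubp5*, with 4, 4, 1 and 4 counts against 22, 14, 20 and 28 counts in Col-0 (log2 fold change -2.26, SE 0.34; edgeR adjusted p = 0.00118). *DRIP1* (AT1G06770), its close relative, is named here after its values were seen. It did not pass the filter on low counts and was not tested, with 2, 0, 1 and 0 counts in *ubp5* against 10, 21, 21 and 25 counts in Col-0. Under DESeq2 and with other filters it was tested and called lower. The RING1 partners did not share this direction: *RING1A* had a log2 fold change of 0.65 (SE 0.32; edgeR adjusted p = 0.225) and *RING1B* of 0.27 (SE 0.37; edgeR adjusted p = 0.696). *HUB1* and *HUB2*, the ligases for H2B, had values of 0.28 (SE 0.19) and 0.41 (SE 0.19) and were not called.

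Ubiquitin precursor genes, whose products are substrates of deubiquitinases, had 11 of 15 members tested, and 0 were called. All 11 log2 fold changes were above 0 with a median of 0.30, against -0.01 over all tested genes. *UBQ4* alone passed the adjusted p, below 2-fold, with 57.1 ± 6.76 CPM in *ubp5* and 40.2 ± 5.51 CPM in Col-0 (SD, n = 4 each; log2 fold change 0.50, SE 0.13; edgeR adjusted p = 0.0318). The 15 genes summed to 4115, 4442, 4188 and 4321 CPM in *ubp5*, against 4052, 3623, 3687 and 3525 CPM in Col-0. The groups did not overlap, and by this sum Col-0 replicate 1, the library set apart by the second principal component, was the one nearest to the mutant. Not every gene shared this. *UBQ10*, the gene with the highest level, had 1694 CPM in Col-0 replicate 1, against 1018 to 1228 CPM in the other Col-0 libraries and 1321 to 1476 CPM in *ubp5*. *UBQ1* and *UBQ5* instead had their lowest level in Col-0 replicate 1, at 321.8 and 351.8 CPM. Polyubiquitin genes are made of repeats of one coding unit, so tags within the repeats may have been lost by the requirement of a single mapping position.

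Both partners of UBP22 in its module were tested and 0 called, with log2 fold changes of 0.20 (SE 0.12) for AT5G58575 and -0.12 (SE 0.20) for AT3G27100. All 11 genes of the PEAT complex were tested and 0 called, 3 with values above 0 and 8 below, between -0.45 and 0.35.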

How the data were processed

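Whole seedlings were profiled by 3′ RNA-seq with molecular identifiers, 4 *ubp5* and 4 Col-0 libraries, described as biological replicates in the series' design text. Per the paper, BRBseqTools was used for demultiplexing, trimming and counting, and STAR (version 2.7.8a per the submitters' processing notes) for mapping to TAIR10 with Araport11, where a read needed a single position. The authors deposited raw counts of distinct identifiers for each gene, sense strand only, library by library. Reads shared by near-identical copies are thereby lost. The submitters' notes also name DESeq2.

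All 8 libraries were fitted with edgeR 4.0.16 in R 4.3.3 (quasi-likelihood test, TMM, filterByExpr with its defaults, no covariates), with Benjamini-Hochberg adjustment over 15649 tested genes. A gene was called where the adjusted p was under 0.05 and the size of its log2 fold change 1 or more. Standard errors came from the unshrunken fold change and the F statistic. CPM are counts over TMM-scaled library sizes. Sums, shares, ranks and overlaps of groups are descriptions without a test. The procedure was tested on simulated data. Gene names, lengths and sequences come from RefSeq's TAIR10.1, to which 37051 of 37336 identifiers and all 31 members matched. Catalytic windows were found from the residues glycine, asparagine, threonine and cysteine in the translated coding sequence. Python 3.11.15 and Biopython 1.88 were used.

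The members and lists were chosen with earlier results of these data known. The rule for naming genes takes all members, with counts per library for *UBP5*, the DUSP and histone-linked members, those with an unadjusted p under 0.05 or groups that do not overlap, and the 5 highest and 5 lowest detected in Col-0, and from other lists the called genes; genes that passed the adjusted p alone, and others of those lists, are named besides. Alternatives were DESeq2 1.42.0, its size factors in edgeR, no filter, a filter at 10 counts on average, a block for the replicate number, leaving out organelle genes, dropping the fold-change threshold, leaving out each library, CPM on raw totals and CPM per kb.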

Additional observations from a re-analysis of the deposited data

Results flagged for a closer look

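Levels of the tested members and 5 of the summed levels were examined in each genotype, and in 4 of these 68 groups 1 library stood apart from the other 3 by Dixon's test at the 95% level. Chance flags about 1 in 20 groups, so this number is close to what chance gives. *UBP14* had 41.6 CPM in *ubp5* replicate 2, against 29.4 to 30.3 CPM in the other *ubp5* libraries. *UCH1* had 7.75 CPM in *ubp5* replicate 3, against 5.10 to 5.43 CPM in the others of its group. *UBP7* had 6.83 CPM in Col-0 replicate 1, against 13.9 to 14.7 CPM in the other Col-0 libraries. *UBP3* had 36.9 CPM in Col-0 replicate 2, against 35.0 to 35.3 CPM in the others.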

How the results depend on the processing

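With the fold-change threshold dropped, 719 genes were higher and 992 lower in *ubp5* (299 and 459 with it), 1 gene of the other ubiquitin-pathway lists was higher (*UBQ4*) and 4 were lower, and the members called stayed *UBP5* alone. Without a filter on low counts 4 list genes were called lower, *DRIP1* and a Josephin gene, *JOSL*, besides AT3G57810 and *DRIP2*. *UBP5* was called lower, and 0 members higher, under every alternative fit. Without a filter 30 members were tested, *UBP11* being added, and 28 of those other than *UBP5* kept an upper end under 2-fold. The largest upper end, 5.05 on the log2 scale, was that of *UBP11*, which had 1 count in each genotype. Log2 fold changes close to 0 changed sign: with DESeq2, *UBP3* at 0.0109, *UBP10* at 0.00391, *UBP24* at 0.0027 and *UBP27* at 0.0107; with DESeq2's size factors in edgeR, *UBP3* at 0.00513 and *UBP27* at 0.00323; with a mean of at least 10 counts, *UBP3* at 0.00017; and without organelle genes, *UBP3* at 0.000274. Per kb of transcript, *UBP5* had 1.69% of the family's level in Col-0 and ranked 20. On raw library totals, an alternative chosen after seeing the data, 1 member, *UBP5*, had *ubp5* libraries all below Col-0.

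With each library left out in turn, 0 members were called higher and 1 to 2 lower, the 2 without *ubp5* replicate 4 (*UBP5* and *UBP17*). *UBP5* kept a log2 fold change of -1.67 to -1.39. In each of these fits the interval of 28 members other than *UBP5* ended under 2-fold. The largest upper end was 0.756 on the log2 scale, without Col-0 replicate 1, against 0.627 with all libraries. Over all genes 249 to 465 were higher, with 465 without Col-0 replicate 1, and 402 to 493 lower. Of the other lists 2 to 4 genes were lower, with 4 without *ubp5* replicate 2. Members with groups apart numbered 0 to 1 above, the 1 without Col-0 replicate 3, and 2 to 6 below. There were 6 without *ubp5* replicate 3, 5 without Col-0 replicate 3, and 4 without *ubp5* replicate 4 or Col-0 replicate 1. Groups of 3 separate more readily than groups of 4. The share of all tested genes in these settings was not counted, so nothing is read from these numbers about the members. Signs changed within the ranges -0.0668 to 0.0596 for *UBP3*, -0.0654 to 0.157 for *UBP9*, -0.124 to 0.101 for *UBP10*, -0.0882 to 0.00484 for *UBP12*, -0.0589 to 0.15 for *UBP14*, -0.146 to 0.0996 for *UBP16*, -0.0713 to 0.301 for *UBP22*, -0.0324 to 0.0822 for *UBP23*, -0.0938 to 0.0888 for *UBP24*, -0.0353 to 0.129 for *UBP25*, -0.00366 to 0.21 for *UBP26* and -0.114 to 0.139 for *UBP27*. UBP5's share of the family in Col-0 was 2.12% to 2.62%, its rank 14 to 18, and the difference in the sum of the other members -5.49% to -3.76%.

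Replicate numbers pair no samples by the labels, and deviations of same-numbered libraries correlated at -0.0893, -0.117, 0.00566 and 0.034. With the number as a block, *UBP5* had a log2 fold change of -1.56 (edgeR adjusted p = 0.0056), *UBP27* changed sign at 0.0169, 269 genes were higher and 396 lower, and the calls among members did not change. Depth limits the members with few counts: the standard error of *UBP17* was 0.40 on the log2 scale, and *UBP1* and *UBP11* lay under the floor of detection.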
